A study of Mus musculus with 18 samples.

Results

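The nuclear-encoded oxidative phosphorylation genes are the genes of the cell nucleus whose products build the respiratory chain and the ATP synthase of mitochondria. They were taken by symbol: names starting with Nduf, Uqcr or Atp5, names of Cox followed by a digit from 4 to 8, and Sdha, Sdhb, Sdhc and Sdhd. The count tables held 23420 gene symbols, of which 92 matched, and 89 of these had a mean of 10 or more counts per mouse and were kept. All 89 were among the 15196 genes tested. Cox7b2, Cox8c and Ndufs5 were listed at 0 counts in every mouse and were left out. By complex, the 89 genes comprised 35 subunits of complex I, 7 complex I assembly factors, the 4 subunits of complex II, 8 subunits of complex III, 17 of complex IV and 15 of complex V. The others were the supercomplex factor Cox7a2l and the symbols Atp5s and Atp5sl, whose products are not counted as subunits.

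The retinas came from wild-type albino BALB/cJ mice of both sexes, 8 to 10 weeks old, with 3 individual mice in each of 3 groups. Naïve mice received neither light damage nor treatment. The other groups were dark-adapted for 16 h, exposed to white light of 15000 lux for 1 h and sampled 4 days later. They were injected intraperitoneally every day with either DMSO (vehicle) or 15 mg/kg of TD139, a small-molecule inhibitor of the sugar-binding protein galectin-3, dissolved in DMSO. Vehicle-treated mice thus differed from naïve mice in the light, the injections and the DMSO, which cannot be told apart. The 3 comparisons (vehicle versus naïve, TD139 versus vehicle, TD139 versus naïve) share mice in pairs and are not independent of each other.

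Complex I (NADH dehydrogenase) and complex II (succinate dehydrogenase) feed electrons to ubiquinone, complex III passes them to cytochrome c, and complex IV (cytochrome c oxidase) hands them to oxygen. Complexes I, III and IV pump protons across the inner mitochondrial membrane, and complex V, the ATP synthase, uses the gradient to make ATP. Photoreceptors are among the most energy-demanding cells of the body and pack mitochondria into their inner segments. The subunits encoded by mitochondrial DNA were not analysed here.

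Each mouse had between 26171887 and 30201517 reads assigned to genes after its 2 sequencing runs were summed, and the 89 genes together took between 223789 and 367341 of these. The retinal identity of the samples was clear from rod markers, whose summed level over 12 genes was 82896 to 95405 CPM (gene reads scaled to a common library size) in the naïve group. It was 48222 to 67706 CPM after vehicle and 67867 to 85058 CPM after TD139. In whole tissue, fewer cells of a type and less RNA per cell cannot be told apart. Vehicle-treated mouse 2 stood apart. All 21 skeletal muscle markers examined were at their highest there, with a summed level of 2007 CPM against 144 to 213 CPM in the other 8 mice. All 5 lens markers and 5 of 6 pigment epithelium markers were highest there too. Of the 89 genes, 26 had their highest CPM in this mouse, and counts and calls that change without it are given both ways. Reads outside annotated genes were counted separately. They amounted to 19.1% to 19.9% of all counted reads in the naïve group, 16.5% to 19.4% after vehicle and 21.3% to 22.8% after TD139.

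Many promoters of respiratory chain genes are known for sites of nuclear respiratory factor 1 (NRF1), ETS family factors such as GABP, and YY1. The promoter windows below run from 250 bases before to 50 bases after the first listed start of each gene (RefSeq, GRCm38.p6) and are written 5′ to 3′ in the direction of the gene. Capitals mark matches, on either strand, to an NRF1 core (GCGCATGCG, reverse complement CGCATGCGC), an ETS core (CCGGAAG, reverse complement CTTCCGG) or a YY1 core (AAGATGGCG, reverse complement CGCCATCTT). Cox6a1, Uqcrc1, Cox8a and Atp5j2 are shown because they are among the most abundant genes holding each core, and Cox7a1 because it is a muscle form with none of the 3.
Cox6a1, chr5:115348909-115349208, minus strand: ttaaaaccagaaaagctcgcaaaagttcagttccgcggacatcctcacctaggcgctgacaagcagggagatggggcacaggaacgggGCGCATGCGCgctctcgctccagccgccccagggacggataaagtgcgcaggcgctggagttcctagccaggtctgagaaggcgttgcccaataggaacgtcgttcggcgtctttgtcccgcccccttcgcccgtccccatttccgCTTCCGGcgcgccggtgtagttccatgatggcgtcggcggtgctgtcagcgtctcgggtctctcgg
Uqcrc1, chr9:108936398-108936697, plus strand: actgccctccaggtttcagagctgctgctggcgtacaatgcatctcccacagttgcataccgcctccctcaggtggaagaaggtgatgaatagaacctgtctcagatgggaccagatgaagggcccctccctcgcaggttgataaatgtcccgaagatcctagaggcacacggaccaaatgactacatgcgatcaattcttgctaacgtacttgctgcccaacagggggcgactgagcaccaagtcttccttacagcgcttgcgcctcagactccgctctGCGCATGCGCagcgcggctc
Cox8a, chr19:7217567-7217866, minus strand: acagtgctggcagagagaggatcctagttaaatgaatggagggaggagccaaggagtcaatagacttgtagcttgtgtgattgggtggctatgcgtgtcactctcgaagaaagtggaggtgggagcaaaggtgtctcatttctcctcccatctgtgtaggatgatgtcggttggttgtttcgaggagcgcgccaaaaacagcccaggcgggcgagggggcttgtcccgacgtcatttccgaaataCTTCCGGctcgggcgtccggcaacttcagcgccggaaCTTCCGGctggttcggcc
Atp5j2, chr5:145191492-145191791, minus strand: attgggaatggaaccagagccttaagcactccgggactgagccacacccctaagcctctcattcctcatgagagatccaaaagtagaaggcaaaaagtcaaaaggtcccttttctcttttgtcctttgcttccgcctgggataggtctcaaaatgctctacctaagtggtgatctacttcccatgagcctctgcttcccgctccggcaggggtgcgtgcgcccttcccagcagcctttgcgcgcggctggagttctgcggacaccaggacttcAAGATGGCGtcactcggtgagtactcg
Cox7a1, chr7:30183921-30184220, plus strand: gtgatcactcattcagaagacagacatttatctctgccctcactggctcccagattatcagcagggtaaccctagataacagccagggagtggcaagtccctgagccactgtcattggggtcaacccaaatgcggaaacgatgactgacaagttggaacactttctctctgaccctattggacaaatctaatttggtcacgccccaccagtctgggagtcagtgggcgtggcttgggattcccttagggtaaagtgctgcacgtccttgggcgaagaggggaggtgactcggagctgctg

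The NRF1 core lay 162 bases before the start in Cox6a1, with the overlapping match to its reverse complement 1 base further on, and at base 31 after it in Uqcrc1, again with the overlapping reverse complement. The ETS core began 16 bases before the start of Cox6a1. In Cox8a it began 5 bases before the start and again at base 33 after it. The YY1 core began at base 24 after the start of Atp5j2. Promoter windows were found for 74 of the 89 genes. Among those without one in the table were Ndufs1, Sdhc, Ndufa4l2, Uqcrq, Uqcrb, Cox6c, Ndufb9, Ndufa2, Atp5a1, Cox4i2, Ndufaf6, Uqcrc2, Cox6a2 and Cox4i1. Of the 74 windows, 10 (13.5%) held an NRF1 core, 16 (21.6%) an ETS core and 7 (9.46%) a YY1 core. Among all 11128 tested genes with a window the shares were 3.49%, 16.1% and 2.83%. At least 1 of the 3 cores was present in 39.2% of the 74 windows and in 21.04% of the 11128. These are counts of letters and not of bound sites, and no binding was measured.

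In naïve retina the levels of the 89 genes, per kilobase (kb) of transcript, spanned from 0.203 to 744 CPM per kb. Atp5b (chr10:128083273-128090391, plus strand, GRCm38), the catalytic β subunit of the ATP synthase, was the highest at 744 CPM per kb. It was followed by Ndufa4, now counted with complex IV, at 667 CPM per kb and by Cox6a1, a small complex IV subunit, at 561 CPM per kb. Complex IV common subunits occupied several of the top places, with Cox4i1 at 494, Cox8a at 387 and Cox6b1 at 352 CPM per kb. In complex III the small hinge protein Uqcrh was highest at 454 CPM per kb, and in complex I the accessory subunit Ndufv3 at 265 CPM per kb. Sdha, the flavoprotein of complex II, stood at 142 CPM per kb above Sdhb at 78.5, Sdhc at 68.5 and Sdhd at 54.9 CPM per kb. The 7 complex I assembly factors, which help to build the complex and do not stay in it, lay lower, between 7.98 for Ndufaf4 and 39.5 for Ndufaf5.

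**Figure D1:**
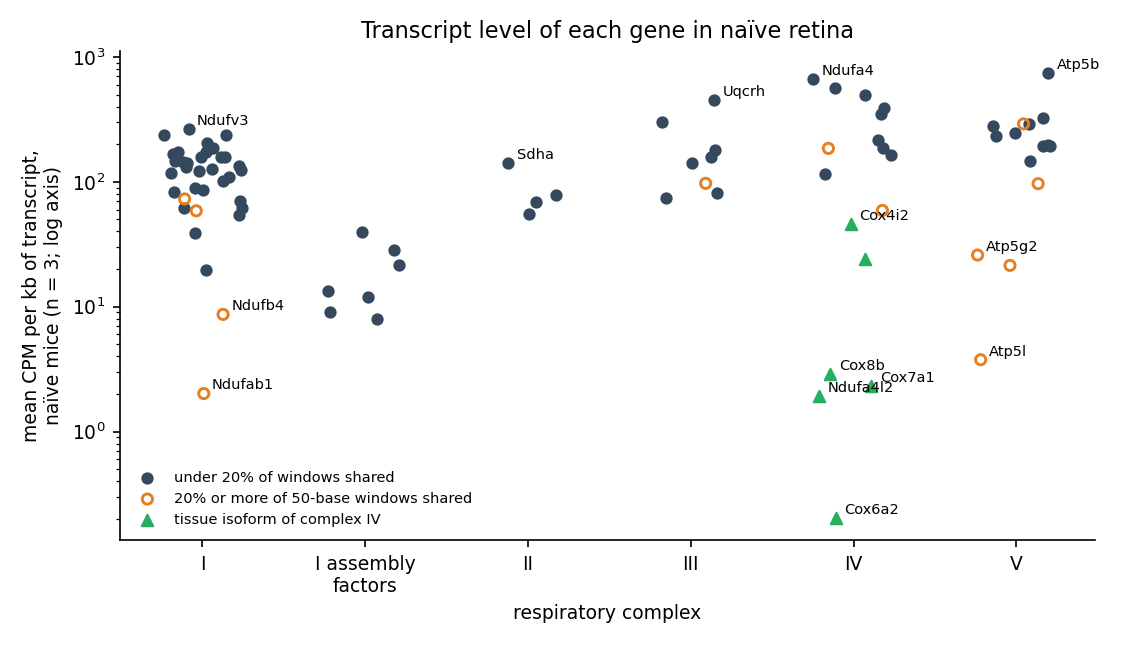
Mean level of each gene in the 3 naïve mice in CPM per kb of transcript (vertical, log axis), by respiratory complex (horizontal); open circles are genes with 20% or more of their 50-base windows found in transcripts of other loci and triangles are the tissue isoforms of complex IV. Atp5b sits at the top at 744 CPM per kb and Cox6a2 at the bottom at 0.203, and the lowest circles of complexes I and V, Ndufab1 and Atp5l, are open.

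Some of the lowest levels cannot be read as low expression. Reads of 50 bases can match near-identical copies of these genes, and how the counting treated such reads is not given in the sources used here. Of the 89 genes, 56 had no 50-base window of their transcript in common with a transcript of another locus in GENCODE M21, and 12 shared 20% or more of their windows. For Atp5l, the g subunit of the ATP synthase, 68.5% of windows were shared with transcripts of 13 other genes, 12 of them pseudogenes, and the gene was listed at only 3.76 CPM per kb. For Atp5g2, 1 of 3 genes that encode the same mature c-ring protein, 100% of windows were shared with 2 pseudogenes and the listed level was 25.9 CPM per kb. The windows below, from the GENCODE M21 transcripts, each occur letter for letter in other genes: the Atp5l window in 9 pseudogenes and the Atp5g2 window in 2.
Atp5l, chr9:44913395-44913444, minus strand, coding part of exon 3: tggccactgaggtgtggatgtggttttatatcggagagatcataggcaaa
Atp5g2, chr15:102663017-102663066, minus strand, coding part of exon 4: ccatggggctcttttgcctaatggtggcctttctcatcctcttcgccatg

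The acyl carrier protein gene Ndufab1 (31.2% of windows shared, 2.01 CPM per kb), Ndufb4 (37.0%, 8.67 CPM per kb) and Cox7c (53.0%, 59.0 CPM per kb) share windows in the same way, and their levels are uncertain. Ndufs5, a complex I accessory subunit listed at 0 counts in all 9 mice, shared 35.6% of windows with 1 pseudogene. Nothing is read from that 0.

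Between vehicle-treated and naïve mice 1 of the 89 genes passed the test. The sum over the 89 genes was 13464, 11643 and 10337 CPM in naïve mice and 11327, 12975 and 11844 CPM in vehicle-treated mice. The ranges overlapped, and the naïve mice covered the wider range. By edgeR's quasi-likelihood test, with Benjamini-Hochberg adjustment over all 15196 genes and a threshold of 0.05, 1 gene rose (Cox6a2) and 0 fell. Among all tested genes 4.77% rose and 2.61% fell. At an unadjusted p under 0.05 0 of the 89 genes fell (all genes 13.3%). DESeq2 called 2 genes higher, Cox7a1 and Ndufa4l2, and 0 lower, and gave Cox6a2 no adjusted p. With limma voom Cox7a1 and Ndufs4 rose and Atp5sl fell, and Cox6a2 was not called (adjusted p = 0.058). Without vehicle-treated mouse 2 the edgeR counts were again 1 and 0, with a median of 0.02. The median log2 fold change was 0.07 for the 89 genes and 0.00 for all genes. It was 0.20 without naïve mouse 1, 0.13 without vehicle-treated mouse 1 and -0.02 without naïve mouse 3, where its sign turned. With the length and GC correction it was 0.02. Rod markers, in contrast, summed to a mean of 88543 CPM in naïve and 58492 CPM in vehicle-treated mice without overlap.

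In each of the 5 complexes most genes were lower in TD139-treated mice than after vehicle. The sum over the 89 genes was 9670, 8905 and 8844 CPM in the TD139-treated mice. Each of these lay below the lowest vehicle-treated mouse (11327 CPM), and also below the lowest naïve mouse (10337 CPM). Of the 89 genes 65 fell and 0 rose (edgeR, adjusted p under 0.05), where 16.4% of all tested genes fell and 17.2% rose. The median log2 fold change was -0.53, a decrease of 30.6%, against -0.02 for all genes, and 87 of the 89 estimates were negative. In 77 genes every TD139-treated mouse lay below every vehicle-treated mouse, which was so for 25.4% of all tested genes at any p. At the study's own size criterion (log2 fold change of -2 or less, here with adjusted p under 0.05) only the muscle forms Cox6a2 and Cox7a1 remained, against 1.81% of all tested genes. Without vehicle-treated mouse 2, 48 fell (all genes 11.9%) with a median of -0.46: 23 of 35 complex I subunits, 2 of 4 in complex II, 2 of 8 in complex III, 12 of 17 in complex IV and 8 of 15 in complex V. The count rested most on TD139-treated mice 2 and 3: 18 fell without the former and 19 without the latter, with medians of -0.49 in both cases. Among all genes 4.32% and 5.07% fell in these fits. Of the 65 genes, 16 fell in all 9 fits that left out 1 mouse. These falls moved with transcript length across the whole transcriptome, as described further on, and with the length and GC correction 21 of the 89 genes fell (all genes 10.2%) with a median of -0.14.

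**Figure D2:**
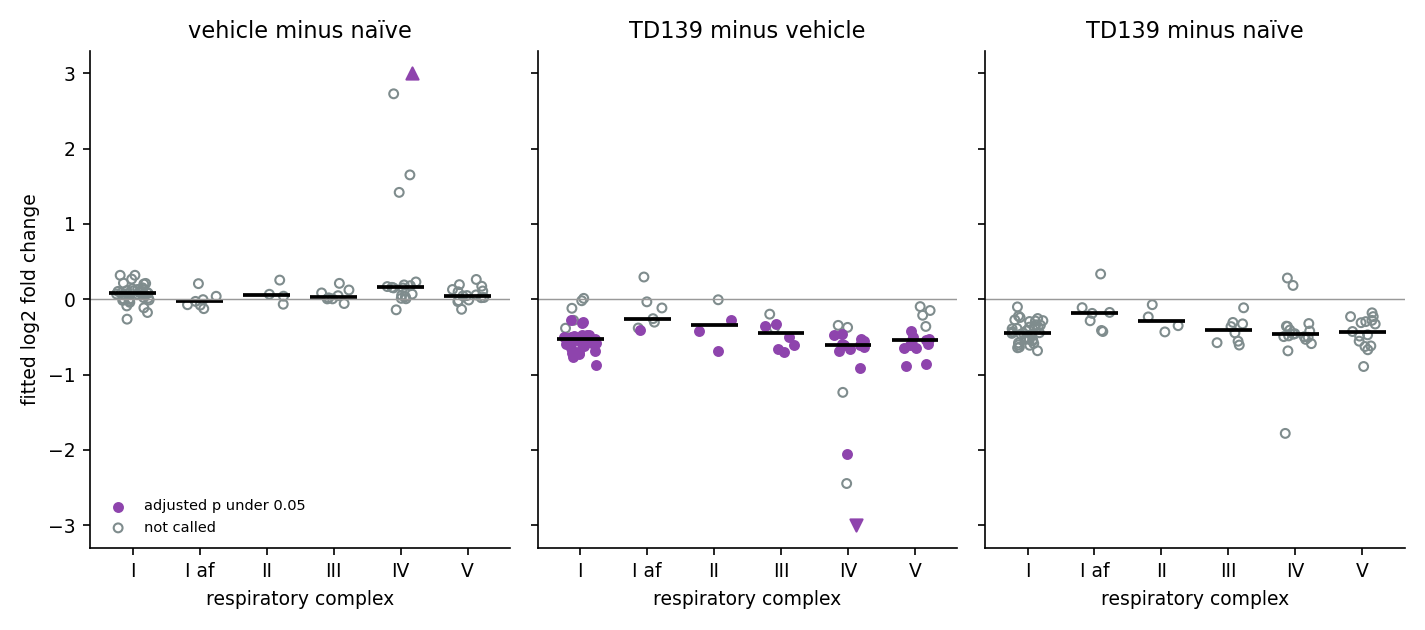
Fitted log2 fold change of each gene (vertical) by respiratory complex (horizontal; I af, complex I assembly factors) in the 3 comparisons; filled points passed an adjusted p of 0.05, bars are medians, and triangles are Cox6a2, drawn at the axis limit of 3 or -3. Medians lie near 0 for vehicle minus naïve and below 0 in every complex for TD139 minus vehicle, from -0.26 for the assembly factors to -0.61 for complex IV.

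In complex I, 30 of 35 subunits fell in TD139-treated against vehicle-treated mice (median -0.53 in log2). Of the 7 core subunits, which carry the flavin, the iron-sulphur clusters and the quinone site, 6 fell, and 3 without vehicle-treated mouse 2. Ndufv1, the NADH-binding flavoprotein, was at 236, 265 and 245 CPM in vehicle-treated and 213, 193 and 197 CPM in TD139-treated mice. The groups did not overlap, and the log2 fold change was -0.30 ± 0.09 (SE, n = 3 per group, edgeR adjusted p = 0.022), with 0.10 after the length and GC correction (adjusted p = 0.34). Without vehicle-treated mouse 2 the adjusted p of Ndufv1 was 0.075, and the call was also lost without vehicle-treated mouse 3 and without TD139-treated mouse 2 or 3 (highest adjusted p = 0.088). The exception was Ndufs1, the core subunit with the longest transcript (2625.5 bases). It was at 123, 143 and 128 CPM in vehicle-treated and 131, 135 and 131 CPM in TD139-treated mice, with a log2 fold change of 0.01 ± 0.08 (edgeR adjusted p = 0.92).

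Of the 28 accessory subunits, which surround the core, 24 fell (median -0.55). The largest decrease was that of Ndufa3, at 67.8, 80.4 and 80.2 CPM in vehicle-treated and 46.5, 37.7 and 40.4 CPM in TD139-treated mice. The groups were well apart (log2 fold change -0.87 ± 0.16, edgeR adjusted p = 0.0075), and the call was kept in all 9 fits that left out 1 mouse and after the length and GC correction (-0.44, adjusted p = 0.013). Of the 7 assembly factors 1 fell, Ndufaf3 (-0.41 ± 0.12, edgeR adjusted p = 0.025). It was called in 5 of the 9 fits that left out 1 mouse, and lost the call when mouse 1 or 3 of the vehicle group or mouse 2 or 3 of the TD139 group was absent and after the correction (-0.01). Ndufaf4, with the longest transcript of all 89 genes (3632 bases), had an estimate of 0.30 ± 0.13 (edgeR adjusted p = 0.092), which turned to -0.16 after the correction (adjusted p = 0.29).

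Complex II, the one complex whose subunits are all encoded in the nucleus, split by gene. Sdha was at 394, 418 and 368 CPM in vehicle-treated and 392.4, 396 and 386 CPM in TD139-treated mice. The values interleaved, with a log2 fold change of -0.01 ± 0.08 (edgeR adjusted p = 0.96). Sdhb, the iron-sulphur subunit, was at 91.3, 114 and 116 CPM against 74.3, 62.5 and 62.4 CPM. Its groups were separate (-0.69 ± 0.13, edgeR adjusted p = 0.0075). The membrane anchors Sdhc (-0.42 ± 0.10, edgeR adjusted p = 0.013) and Sdhd (-0.28 ± 0.09, edgeR adjusted p = 0.043) fell by less. After the length and GC correction Sdhb (-0.24, adjusted p = 0.041) and Sdhc (-0.26, adjusted p = 0.031) kept their calls, and Sdhd was at 0.00. The call of Sdhb held in all 9 fits that left out 1 mouse. That of Sdhc was lost without TD139-treated mouse 2 or 3 (highest adjusted p = 0.062). That of Sdhd was lost in 5 of them, those without TD139-treated mouse 2 or 3, vehicle-treated mouse 2 or 3 or naïve mouse 2 (highest adjusted p = 0.16).

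In complex III 6 of 8 subunits fell, with a median of -0.44. Uqcrc1, a core protein of the complex, was at 285, 312 and 295 CPM in vehicle-treated and 242, 232 and 235 CPM in TD139-treated mice. Uqcrh was at 186, 233 and 203 CPM against 156, 143 and 140 CPM. Neither gene overlapped between the groups, with log2 fold changes of -0.33 ± 0.09 (edgeR adjusted p = 0.017) for Uqcrc1 and -0.50 ± 0.15 (edgeR adjusted p = 0.027) for Uqcrh. After the correction neither was called, at 0.07 and -0.18. Both calls were lost without TD139-treated mouse 2 or 3 or vehicle-treated mouse 2, and that of Uqcrh also without vehicle-treated mouse 3 (highest adjusted p = 0.068 for Uqcrc1 and 0.097 for Uqcrh). Uqcrb and Uqcrc2 had log2 fold changes of -0.38 and -0.20 and were not called.

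In complex IV 10 of the 11 common subunits fell, with a median of -0.60. Cox4i1, a regulatory subunit near the catalytic core, was at 379, 437 and 432 CPM in vehicle-treated and 308, 241 and 239 CPM in TD139-treated mice. Cox6a1 was at 301, 331 and 333 CPM against 228, 197 and 214 CPM. The groups were separate in both genes, with log2 fold changes of -0.66 ± 0.14 (edgeR adjusted p = 0.0093) and -0.60 ± 0.13 (edgeR adjusted p = 0.0094). With the length and GC correction Cox4i1 was at -0.11 and Cox6a1 at -0.03, and neither was called. Cox4i1 was called in all 9 fits that left out 1 mouse, and Cox6a1 in all but that without TD139-treated mouse 2 (adjusted p = 0.051). Among the common subunits with an isoform, Cox6b1 (-0.64), Cox7a2 (-0.55), Cox7b (-0.61) and Cox8a (-0.47) fell as well, of which Cox6b1 and Cox7b kept the call after correction. Cox7b was called in all 9 fits that left out 1 mouse, and Cox6b1, Cox7a2 and Cox8a lost the call without TD139-treated mouse 2 or 3, at a highest adjusted p of 0.066. Ndufa4 was the one that was not called, at -0.35 ± 0.17 (edgeR adjusted p = 0.12). Over the fits that left out 1 mouse its edgeR adjusted p ran from 0.027 to 0.30, so the lack of a call also depended on single mice. Cox7a2l, which joins complexes III and IV into supercomplexes, was at 68.8, 81.9 and 74.5 CPM against 58.2, 57.0 and 58.6 CPM (-0.37 ± 0.13, edgeR adjusted p = 0.049, after correction -0.06), and its call was kept in only 2 of the 9 fits that left out 1 mouse.

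In complex V 11 of 15 subunits fell (median -0.54), and the catalytic pair did not. Atp5b, which the study used as its reference gene in quantitative PCR, was at 1549, 1442 and 1284 CPM in naïve, 1258, 1459 and 1181 CPM in vehicle-treated and 1222, 1237 and 1187 CPM in TD139-treated mice. Vehicle-treated and TD139-treated mice overlapped, with a log2 fold change of -0.10 ± 0.11 (edgeR adjusted p = 0.49), or -0.00 without vehicle-treated mouse 2. All TD139-treated mice lay below all naïve mice (-0.23 ± 0.11, edgeR adjusted p = 0.18), and vehicle-treated mice overlapped naïve mice (-0.13 ± 0.11, edgeR adjusted p = 0.44). Atp5a1, the α subunit of the same head, was at 783, 872 and 799 CPM in vehicle-treated and 773, 731 and 710 CPM in TD139-treated mice (-0.15 ± 0.09, edgeR adjusted p = 0.21).

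The small ε subunit of the ATP synthase head, Atp5e, was at 95.5, 130 and 109 CPM in vehicle-treated and 67.4, 57.4 and 58.6 CPM in TD139-treated mice. Its groups were separate (-0.86 ± 0.20, edgeR adjusted p = 0.011, after correction -0.40 with adjusted p = 0.035), and the call was kept in 7 of the 9 fits that left out 1 mouse, not in those without TD139-treated mouse 2 or 3. The c ring, which turns with the proton flow, is encoded by Atp5g1, Atp5g2 and Atp5g3, and all 3 fell by similar amounts (-0.53, -0.54 and -0.50). After correction Atp5g1 alone kept its call (-0.52, adjusted p = 0.017), with Atp5g2 at -0.00 and Atp5g3 at -0.13. Atp5g1 and Atp5g2 share windows with pseudogenes and Atp5g3 shares none. Atp5g3 was called in all 9 fits that left out 1 mouse. Atp5g1 lost the call without TD139-treated mouse 2 or 3 (highest adjusted p = 0.060) and Atp5g2 without TD139-treated mouse 2 or vehicle-treated mouse 2 or 3 (highest adjusted p = 0.088). Of the peripheral stalk 3 of 4 genes fell (Atp5h, Atp5j and Atp5o), and of the small membrane subunits 3 of 3. These counts were 1 (Atp5h) and 3 without vehicle-treated mouse 2.

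TD139-treated mice were also lower than naïve mice, with no adjusted call. The median log2 fold change was -0.42 for the 89 genes and 0.00 for all genes, and 86 estimates were negative. The median was -0.26 without naïve mouse 1 and -0.11 with the length and GC correction. No member passed in either direction with edgeR, nor did any of the 15196 genes. At an unadjusted p under 0.05, 67 of the 89 genes were lower (all genes 14.2%). The lowest adjusted p over the 89 genes was 0.050, just above the threshold. With DESeq2, 54 of 87 genes with an adjusted p fell (all genes 8.36%). With limma voom and sample quality weights, 70 of 89 fell (all genes 16.3%). In 60 of the 89 genes every TD139-treated mouse lay below every naïve mouse (all genes 16.8%). Without naïve mouse 3, 63 of the genes fell by edgeR (all genes 7.1%), and without TD139-treated mouse 1, 24 fell (all genes 2.97%).

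The 9 mice differed among themselves in these genes also within groups. Taking each gene relative to its mean in naïve mice on the scale of log2(CPM + 0.1), the median of the 89 genes was 0.25, -0.01 and -0.24 in the naïve mice. It was -0.02, 0.18 and 0.08 in the vehicle-treated mice and -0.28, -0.48 and -0.45 in the TD139-treated mice. Naïve mouse 3 came close to TD139-treated mouse 1, and the span within the naïve group was about as wide as the distance between TD139-treated and vehicle-treated mice. The median of all tested genes with a transcript under 1000 bases followed in every mouse, at 0.20, -0.01 and -0.19 in naïve, 0.00, 0.13 and 0.08 in vehicle-treated and -0.25, -0.43 and -0.39 in TD139-treated mice. Genes of 4000 bases or more moved the opposite way in most mice, with medians of -0.14, 0.00 and 0.14 in naïve, 0.03, -0.09 and -0.08 in vehicle-treated and 0.20, 0.31 and 0.30 in TD139-treated mice.

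**Figure D3:**
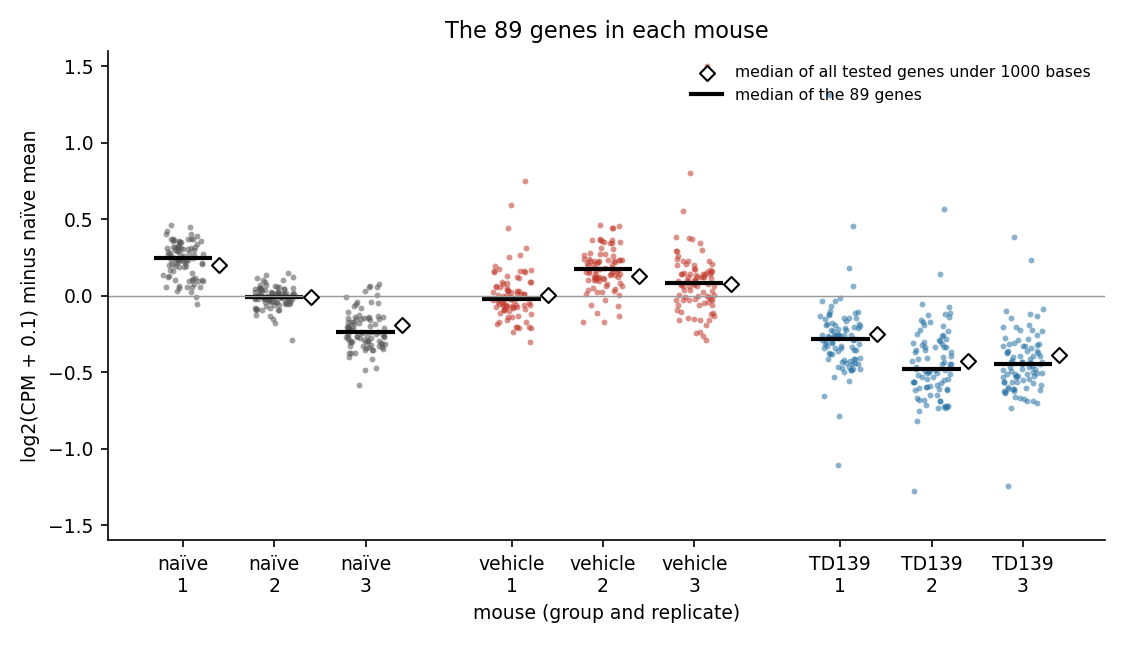
Each point is 1 of the 89 genes in 1 mouse, as log2(CPM + 0.1) minus its naïve mean (vertical), with mice by group on the horizontal axis; bars are medians of the 89 genes, diamonds medians of all tested genes under 1000 bases, and 5 points lie beyond the axis limit of 1.6. Bar and diamond stand close together in every mouse, and the TD139 bars (-0.28, -0.48 and -0.45) are the lowest.

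The 89 genes have short transcripts. Their median length was 763 bases against 2687 bases for all tested genes with a length, and 55 of them (61.8%, all genes 8.72%) were under 1000 bases. In TD139-treated against vehicle-treated mice, the median log2 fold change of the 55 short members was -0.59, that of the 25 members of 1000 to 2000 bases -0.35 and that of the 9 longer members -0.03. All tested genes showed the same order: -0.44 under 1000 bases, -0.25 from 1000 to 2000, 0.01 from 2000 to 4000 and 0.31 from 4000 bases. In the shortest class 39.9% of all genes fell, and 47 of the 55 members did. Across genes, which are not independent replicates, the Spearman correlation of length and log2 fold change was 0.63 over the 89 genes and 0.46 over all 15060 genes with a length. The share of reads outside annotated genes was also highest in TD139-treated mice, as given above. The part of either in the falls was not tested beyond the length and GC correction.

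That correction fitted, in each mouse, a smooth curve of expression on transcript length and GC content over all genes and used it as an offset in edgeR. Of the 65 genes that fell, 20 still fell. These were Cox6a2, Cox7a1 and Cox4i2 among the tissue isoforms, and Cox6b1, Cox7b and Cox7c among the common subunits of complex IV. Sdhb and Sdhc, Uqcrq, Atp5e and Atp5g1 were among them, and from complex I Ndufv2, Ndufa1, Ndufa2, Ndufa3, Ndufb2, Ndufb8, Ndufc1, Ndufs4 and Ndufs6. The gene called only with the correction was Uqcrc2 (-0.20 with and without it). Of all 89 estimates 76 were negative. Among the 20 genes Atp5g1 (2675.5 bases), Ndufb2 (2413 bases), Sdhc (1993 bases) and Ndufs4 (1698 bases) had the longest assigned lengths. Their log2 fold changes were -0.53, -0.58, -0.42 and -0.59 before correction. An assigned length is a median over annotated transcripts, whatever their use in the retina, which was not measured. Where the transcripts in use are shorter, the correction takes away too little of a fall that follows length.

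**Figure D4:**
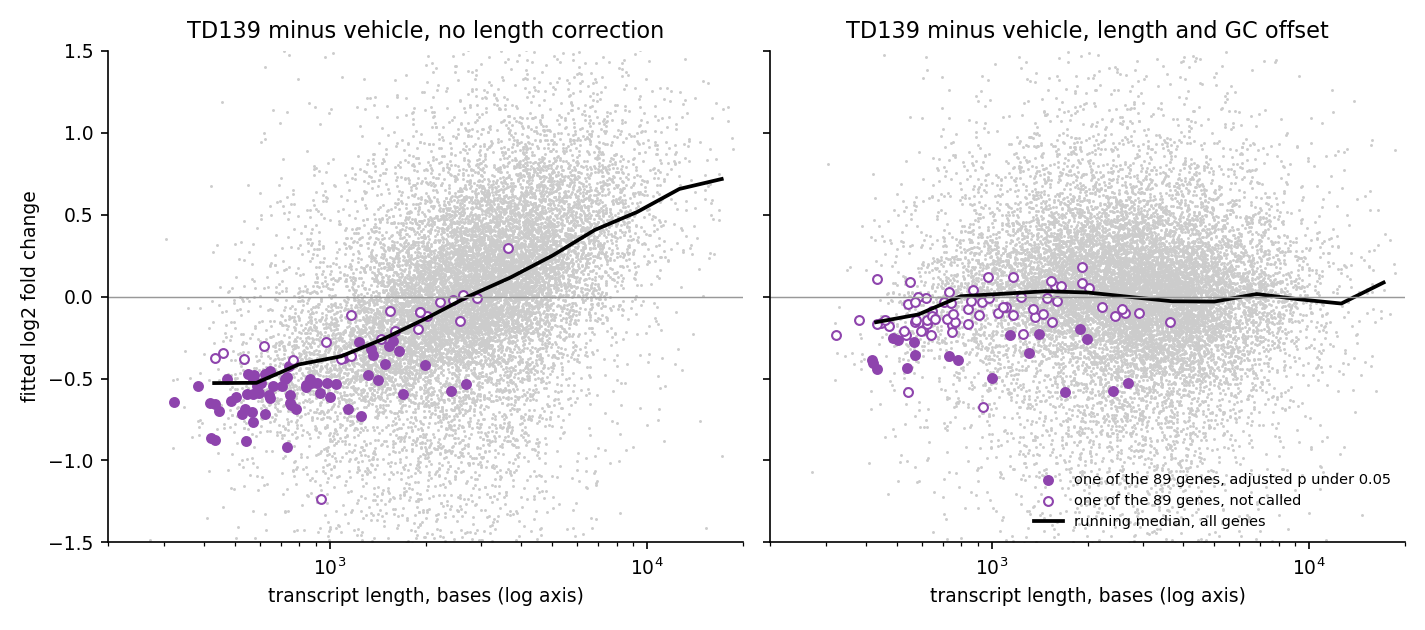
Fitted log2 fold change, TD139 minus vehicle (vertical), against transcript length in bases (horizontal, log axis), without (left) and with (right) the length and GC offset; grey points are all tested genes, purple points the 89 genes, filled where adjusted p was under 0.05, and the black line is the running median in bins of at least 20 genes. On the left the line climbs with length and the 89 genes lie along its low end (median -0.53), and on the right it is nearly flat with the 89 genes slightly below it (median -0.14); Cox6a2, Cox7a1 and Cox8b fall outside the axes from -1.5 to 1.5.

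The largest changes were in isoforms of complex IV subunits that are typical of heart and skeletal muscle, Cox6a2, Cox7a1 and Cox8b. Cox6a2 (chr7:128205435-128206387, minus strand, GRCm38) had 4, 3 and 4 counts in naïve, 30, 663 and 17 in vehicle-treated and 1, 2 and 0 in TD139-treated mice. All 3 vehicle-treated mice lay above all others, and mouse 2, with its muscle markers, far above. The part of the muscle signal in the values of mouse 2 was not tested. The log2 fold change was 5.88 ± 1.403 against naïve mice (edgeR adjusted p = 0.035). Without mouse 2 it was 2.53 (edgeR adjusted p = 0.044), or 6.44-fold by the group means of counts scaled by library size alone. The call against naïve mice was lost in 6 of 9 fits that left out 1 mouse. These were the fits without any 1 naïve mouse, vehicle-treated mouse 3 or TD139-treated mouse 2 or 3 (highest adjusted p = 0.12). TD139-treated mice were at or under the floor of 3 counts per library. With counts scaled by library size alone, vehicle-treated mice were thus at least 77.5-fold higher with mouse 2 and at least 7.91-fold higher without it. The edgeR adjusted p was 0.0099 and 0.015.

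Cox7a1 (chr7:30184144-30186078, plus strand) had 34, 24 and 23 counts in naïve, 49, 180 and 45 in vehicle-treated and 24, 20 and 18 in TD139-treated mice. Again all vehicle-treated mice were above all others. The decrease in TD139-treated against vehicle-treated mice was -2.06 ± 0.53 in log2 (edgeR adjusted p = 0.017), and -1.09 without mouse 2 (adjusted p = 0.048). The call was lost without TD139-treated mouse 2 or 3 (highest adjusted p = 0.073). The difference between vehicle-treated and naïve mice was 1.65 ± 0.52 (edgeR adjusted p = 0.076), and 0.68 without mouse 2. Cox8b had 36, 29 and 17 counts in naïve, 43, 510 and 31 in vehicle-treated and 70, 10 and 21 in TD139-treated mice. Among vehicle-treated mice its high value was seen in mouse 2 alone, and without that mouse its log2 fold change was 0.32 against naïve mice and -0.04 for TD139-treated against vehicle-treated mice. Cox8b was not called by edgeR with all mice in either comparison. Over the fits that left out 1 mouse, its change in TD139-treated against vehicle-treated mice ran from -3.54 to -0.04 (edgeR adjusted p from 0.046 to 0.98).

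Ndufa4l2, a paralogue of Ndufa4 known to be induced by hypoxia, had 63, 42 and 37 counts in naïve, 67, 251 and 92 in vehicle-treated and 65, 40 and 58 in TD139-treated mice. It was again highest in mouse 2 and was not called by edgeR with all mice and both runs. DESeq2 called a rise from naïve to vehicle-treated mice (adjusted p = 0.033) and a fall from vehicle to TD139 (adjusted p = 0.036), and edgeR called the fall without vehicle-treated mouse 1 (adjusted p = 0.035) and from run 1 alone (adjusted p = 0.037). Cox4i2, the isoform of Cox4i1 found in lung and in pericytes, was at 33.4, 44.6 and 39.2 CPM in vehicle-treated and 20.7, 18.5 and 23.0 CPM in TD139-treated mice. The groups were well apart (-0.92 ± 0.17, edgeR adjusted p = 0.0075), also without mouse 2 (-0.81, adjusted p = 0.019) and after the length and GC correction (-0.36, adjusted p = 0.036). Cox6b2, the testis form of Cox6b1, was at 10.9, 12.04 and 8.67 CPM in vehicle-treated and 9.23, 7.24 and 7.94 CPM in TD139-treated mice, which overlapped (-0.37 ± 0.21, edgeR adjusted p = 0.19).

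**Figure D5:**
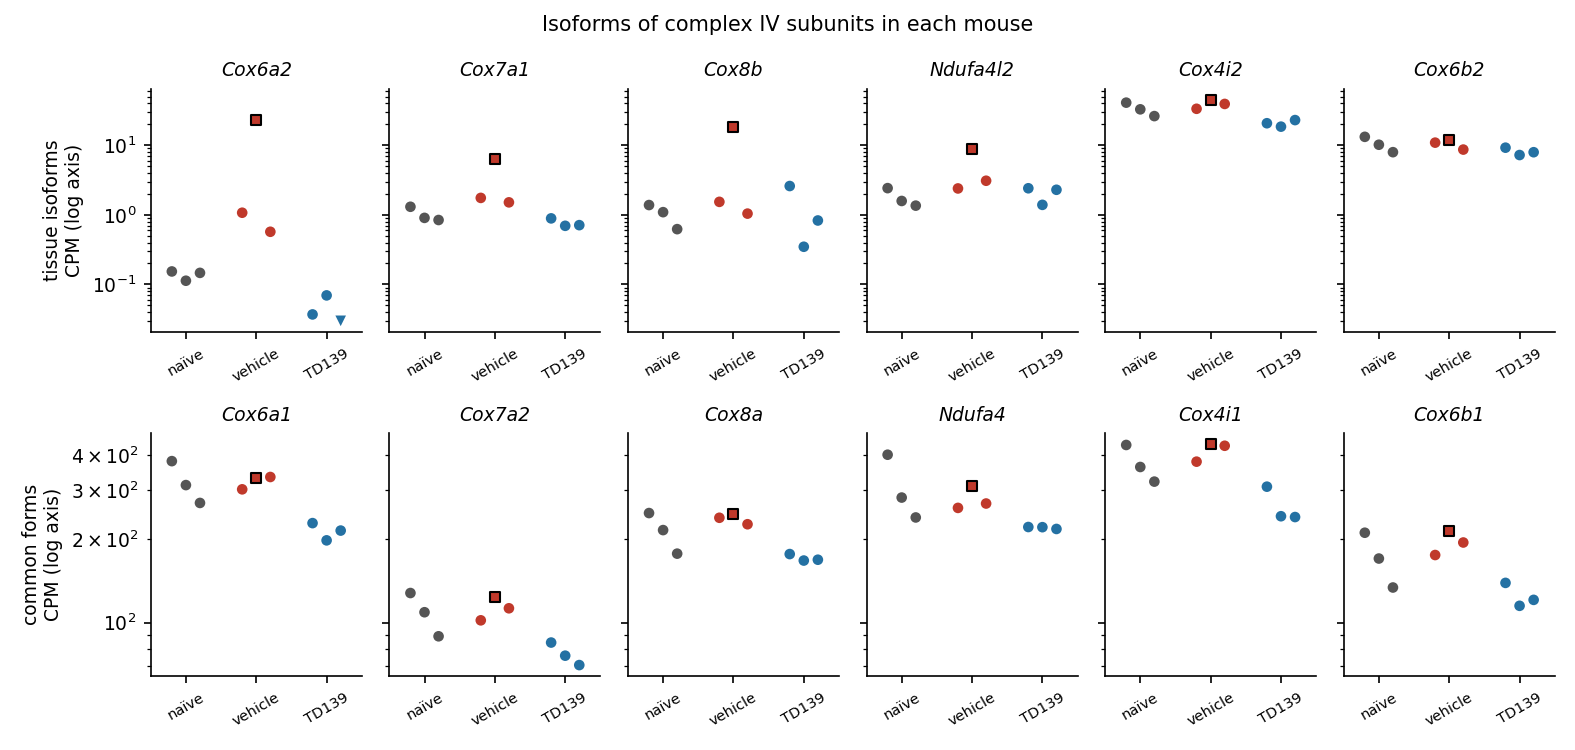
CPM (vertical, log axis) in each mouse by group (horizontal) for 6 tissue isoforms of complex IV subunits (top) and their common counterparts (bottom); squares are vehicle-treated mouse 2 and the triangle, drawn at the foot of the axis, is a library with 0 counts. In Cox6a2, Cox7a1, Cox8b and Ndufa4l2 the square stands far above all other mice (Cox6a2, 663 counts against 30 or fewer), and in the common forms it lies within or near the other vehicle-treated mice.

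Other genes of the same pathway were mixed. Among 7 electron carriers and subunits without a systematic name, 6 fell in TD139-treated against vehicle-treated mice, among them the cytochrome Cyc1 of complex III (-0.33 ± 0.09, edgeR adjusted p = 0.020) and the ATP synthase inhibitor Atpif1 (-0.57 ± 0.14, edgeR adjusted p = 0.014). With the length and GC correction neither was called, at 0.06 for Cyc1 and -0.17 for Atpif1, while the ATP synthase component Usmg5 kept its call (-0.35, adjusted p = 0.044) and cytochrome c, Cycs, gained one (-0.49, adjusted p = 0.027). Without vehicle-treated mouse 2, 3 of the 7 fell, Cyc1 and Atpif1 among them (adjusted p = 0.049 and 0.035), and Usmg5 lost its call (adjusted p = 0.076). Of 31 tested assembly factors outside the rule 4 (12.9%) fell and 0 rose (median -0.08). Of 16 genes of the citrate cycle and pyruvate dehydrogenase 3 (18.8%) fell (median -0.04), Idh3b, Idh3g and Mdh2. Both shares were near that of all tested genes (16.4%), and after the correction Idh3b, Idh3g and Mdh2 were at 0.02, -0.00 and 0.02 and not called. The correction called 1 other gene of the citrate cycle list lower, Dlat (-0.28, adjusted p = 0.026, without correction -0.02), and 3 assembly factors lower (Cox17, Coa5 and Sdhaf1) and 1 higher (Acad9). Without vehicle-treated mouse 2, 2 assembly factors and 0 citrate cycle genes fell (edgeR, with adjusted p of 0.093, 0.052 and 0.071 for Idh3b, Idh3g and Mdh2). Suclg2, a subunit of succinyl-CoA ligase, rose in vehicle-treated against naïve mice (1.27 ± 0.30, edgeR adjusted p = 0.034) but was not called without mouse 2 of the vehicle group (1.03, adjusted p = 0.073). It was named after its value was seen, as were the others of this paragraph. Of 6 carriers and pores 3 fell, among them the ATP/ADP carrier Slc25a4 (-0.42 ± 0.09, edgeR adjusted p = 0.011, and 0.031 without that mouse), and 2 of 6 fell without it. With the length and GC correction Slc25a4 kept its call (-0.24, adjusted p = 0.048). Slc25a3 and Vdac1 were then at -0.08 each and not called.

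Of 12 tested regulators of mitochondrial gene expression, 3 rose with TD139 relative to vehicle and 1 fell, where 17.2% of all tested genes rose and 16.4% fell. Counts this small differ little from those shares. The coactivators Ppargc1b (0.88 ± 0.16, edgeR adjusted p = 0.0075) and Ppargc1a (1.05 ± 0.25, edgeR adjusted p = 0.013) rose and remained called after the length and GC correction at 0.95 and 0.68. Ppargc1b had been lower in vehicle-treated than in naïve mice (-0.78 ± 0.16, edgeR adjusted p = 0.027). Gabpa, a subunit of the ETS family factor GABP, rose too (0.62 ± 0.16, edgeR adjusted p = 0.015) and was at 0.27 after correction (adjusted p = 0.12). The nuclear receptor Esrra fell (-0.37 ± 0.09, edgeR adjusted p = 0.015, after correction -0.09). Each of these calls without the correction was kept without vehicle-treated mouse 2. The gene of NRF1, Nrf1, was called with the correction only, at -0.39 for vehicle against naïve (adjusted p = 0.036, without correction -0.36 and 0.056) and 0.33 for TD139 against vehicle (adjusted p = 0.045, without correction 0.17 and 0.21).

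Ribosomal protein and proteasome genes were counted beside the 89 genes. Of 84 tested cytosolic ribosomal protein genes 74 (88.1%) fell in TD139-treated against vehicle-treated mice (median -0.65), of 76 mitochondrial ribosomal protein genes 32 (42.1%, median -0.34) and of 35 proteasome genes 21 (median -0.36), beside 65 of the 89 genes (73.0%, median -0.53). Without vehicle-treated mouse 2 the counts were 67 (of 85 then tested), 17 and 14. With the length and GC correction the counts were 39, 11 and 5, beside 21 of the 89 oxidative phosphorylation genes, with medians of -0.27, -0.05, -0.15 and -0.14. The difference between the sets was not tested. Cell type markers were measured beside these results: microglia and macrophage markers (12 genes) summed to 37.5 to 43.0 CPM in naïve, 217 to 427 CPM in vehicle-treated and 25.9 to 128 CPM in TD139-treated mice, and Müller glia markers (6 genes) to 3398 to 4058, 4093 to 4677 and 3998 to 4507 CPM. Their part in the falls was not tested.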

How the data were processed

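Retinal poly(A) RNA of 9 mice was sequenced by the authors with a stranded mRNA kit, as single reads of 50 cycles on 2 flow cells, and converted with bcl2fastq v2.20. The authors deposited raw counts per gene symbol, 1 table per mouse and run. The labels name the build mm10; the aligner settings, gene annotation, strand setting and treatment of reads with several positions are not given in the sources used here. Rows of reads outside genes (16.5% to 22.8%) and ambiguous reads entered neither library sizes nor tests. The floor of 3 counts covers counting error only. The labels give no batch other than the runs.

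Runs were summed per mouse, normalised by TMM and filtered with filterByExpr, and the 3 groups were fitted together with edgeR 4.0.16 (R 4.3.3) by the quasi-likelihood test, two-sided, with Benjamini-Hochberg adjustment over all 15196 genes. The SE is the log2 fold change divided by the square root of F and includes the variation between mice. The study's own size criterion was a log2 fold change of at least 2. Transcript lengths, GC content and shared windows came from GENCODE M21 (GRCm38; 98.4% of symbols matched), as the median over basic protein-coding transcripts. Alternatives were DESeq2 1.42.0, limma 3.58.1 (voom), other scalings, filters and samples, single runs, the replicate block, length and GC offsets, and leaving out each mouse. The scripts were tested on simulated data.

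Members and gene lists were chosen with earlier results of these data known. The named genes were the 2 most abundant of each complex, complex II, isoforms of a subunit, Atp5b, and up to 3 members with the highest and lowest called changes per comparison, except 1 gene that is not reported here; Ndufa3, Ndufs1, Ndufaf4, Atp5e, the genes named for shared windows or promoters, and those listed after the length correction were added after their values were seen. The folds of group means of muscle isoforms without vehicle-treated mouse 2 were chosen after seeing the data. Folds of group means used counts scaled by library size alone, with a floor of 3 counts per library.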

Additional observations from a re-analysis of the deposited data

How the results depend on the processing

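In TD139-treated against vehicle-treated mice the count of members that fell (65) lay between 59 and 69 with DESeq2, limma voom, other scalings, filters, the 2 groups alone and single runs. It was 21 with the length and GC offset, 20 with length alone and 15 with the longest transcript, with medians of -0.14, -0.13 and -0.092, and ranged from 18 to 68 when 1 mouse was left out. TD139-treated against naïve mice gave 0 calls, but 54 with DESeq2, 70 with limma voom, 13 from run 2 alone and 0 to 63 when 1 mouse was left out; the length offsets moved the median from -0.42 to -0.11, -0.12 and -0.0834. In vehicle-treated against naïve mice 1 member rose (Cox6a2; from run 1 alone Cox7a1 in its place), 2 with DESeq2 or limma voom, 0 with the 2 groups alone or run 2 alone and 0 to 1 when 1 mouse was left out; Atp5sl fell (1 member) with limma voom and with either length and GC offset. The cause of the differences between tools was not tested.

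Estimates for TD139 against vehicle that turned positive with the length and GC offset, none of them then called, were those of Ndufv1 (0.10, or 0.13 with the longest transcript), Uqcrc1 (0.065, 0.12), Sdhd (0.00021, 0.074, and 0.069 with length alone) and Cox8a (0.088, 0.10). With the longest transcript Cox7a2l (0.0014) and Atp5g2 (0.025) did so too. Scaling by library size alone moved no summed level of a complex by more than 1 SD.

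Replicate numbers did not pair the mice: correlations of the deviations of same-numbered mice ran from -0.26 to 0.28. With the replicate block 64 members fell in TD139-treated against vehicle-treated mice, and 1 rose and 0 fell against naïve mice in vehicle-treated mice, with 0 calls for TD139 against naïve. Depth did not limit most members. The floor of 3 counts was 0.0993 to 0.115 CPM by library size alone, without TMM. Cox6a2 in TD139-treated mice was at or under 3 counts.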
